A study of Mus musculus with 15 samples.

Results

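The collagen gene family was taken as every gene of the deposited array table whose symbol is Col, a number, the letter a and a number, with a gene read from probe sets paired with exactly 1 symbol and from the brightest of them. This gave 44 genes of 22180: 11 of fibrillar collagens, 9 of network-forming collagens (types IV, VIII and X) and 24 of other types. They were followed in 5 choroid plexus carcinomas, 5 choroid plexus papillomas and 5 samples of normal choroid plexus from mice, with 1 Affymetrix array per sample. Carcinomas came from mice labelled Atoh1-Cre; Myc/Myc; p53fl/fl, papillomas from mice labelled Atoh1-Cre; Myc/Myc, and normal tissue from mice labelled Myc/Myc; p53fl/fl, without Cre. All groups thus carried the Myc/Myc alleles, on a mixed background of C57Bl/6 and 129. Cre was driven by Atoh1 sequences, the normal samples carried floxed p53 without Cre, and papillomas had no floxed p53, so tumour type and p53 genotype cannot be told apart between the tumours. The labels give no ages.

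Collagens are secreted or membrane proteins whose chains wind around each other into a rope-like helix. Fibrillar collagens form the tensile cables of connective tissue, network collagens form sheets such as those of basement membranes, and the other types decorate fibrils, form beaded filaments or span cell membranes. In the choroid plexus, a folded secretory epithelium lies on a basement membrane over a stroma of fibroblasts and leaky capillaries, and these cells all make collagens.

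Values are RMA log2 intensities, and a difference of 1 is 2-fold. Differences were tested with limma over all 22180 genes with Benjamini-Hochberg adjustment, and a gene was called at an adjusted p under 0.05. The median of all probe sets was 6.79 to 6.90 per array, and 6 collagen genes lay below it in every array (Col11a1, Col10a1, Col6a4, Col28a1, Col9a1 and Col19a1), where real change would be hard to see. Choroid plexus epithelial markers were high in every group, with list means of 12.38 to 12.71 in carcinomas, 12.44 to 12.77 in papillomas and 13.11 to 13.19 in normal tissue. Each tumour array held either Xist or the Y-linked transcripts Uty, Eif2s3y and Kdm5d. Normal arrays 2 to 5 held both, with Xist at 10.69 to 12.48 and Uty at 7.98 to 10.44, and whether these samples hold tissue of more than 1 mouse was not tested. Results against normal tissue were therefore also computed with normal array 1 alone. Samples that mix mice can also vary less from each other, so a small SD in normal tissue may come from mixing, which was not tested. In whole tissue, fewer cells of a type and less RNA per cell cannot be told apart.

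The collagen family split rather than moving as a block. In carcinomas, Col4a1 and Col4a2 of the common basement membrane network, the fibril-associated Col14a1 and the fibrillar Col3a1 and Col5a1 were higher than in normal tissue, and Col8a2, Col4a3 and Col1a1 were lower. Papillomas showed these same calls and further falls, among them Col1a2 and Col12a1. Of 44 genes, 7 were higher and 7 lower in carcinomas than in normal tissue (15.9% each), against 18.7% higher and 19.2% lower of all genes, so the share of collagen genes called was close to the background. In papillomas 6 were higher (13.6%, against 17.0% of all genes) and 12 lower (27.3%, against 16.3%). Between the tumours, 9 were higher in carcinomas than in papillomas (20.5%, against 6.24%) and 0 lower (against 5.17%) by limma, with 13 genes at an unadjusted p under 0.05. With a variance not pooled over the groups, 0 of these 9 were called and 11 collagen genes had an unadjusted p under 0.05. Array values were fully separated for 12 collagen genes in carcinomas against normal tissue (29.9% of all genes were), 16 in papillomas against normal tissue (32.1%) and 10 between the tumours (7.90%). The median difference of the family was -0.09, -0.03 and 0.02 in these comparisons, beside -0.02, 0.01 and -0.03 for all genes. Both tumour types were compared with the same normal arrays.

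**Figure D1:**
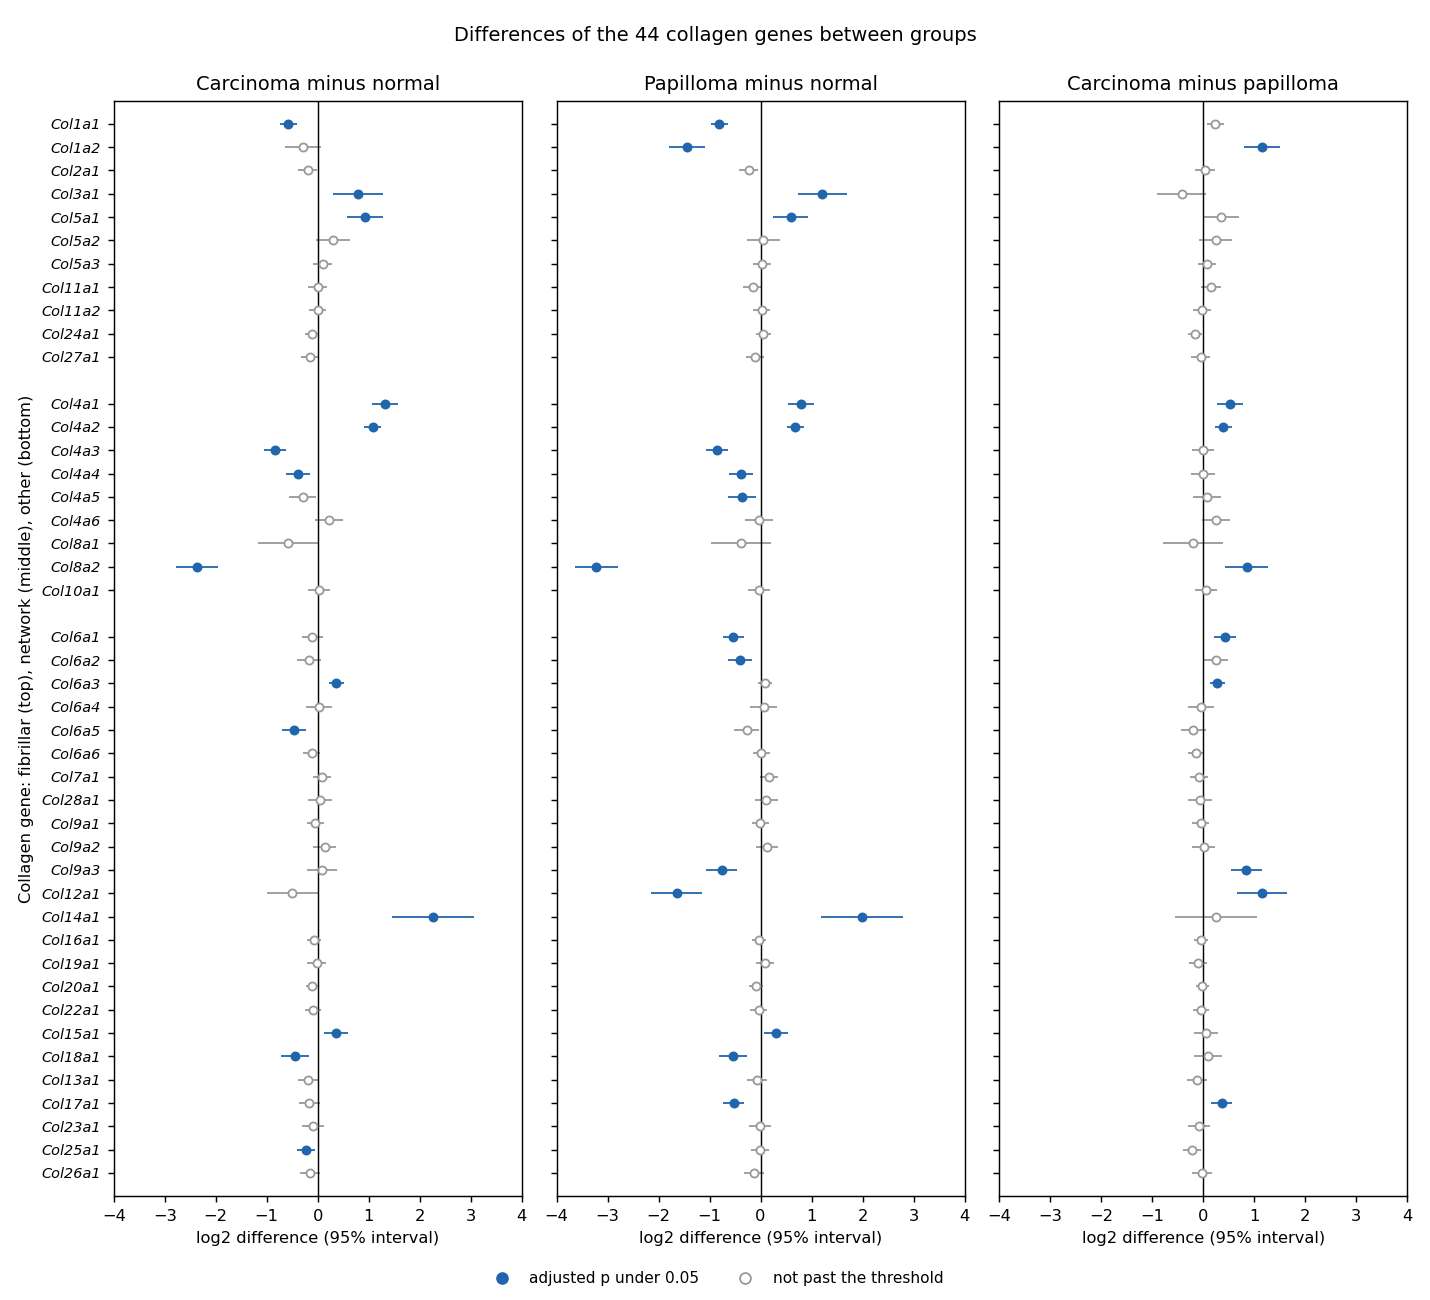
The log2 difference of each of the 44 collagen genes (vertical axis, ordered by class) is plotted in 3 comparisons, with bars for the 95% interval of the limma fit and filled points for an adjusted p under 0.05. Col8a2 lies farthest to the left and Col14a1 farthest to the right in both comparisons with normal tissue, and every filled point between the tumours lies to the right of 0.

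Among fibrillar collagens, the genes of the type I chains and the gene of type III moved in opposite directions in papillomas. Col1a1, a chain of type I collagen and the main cable of bone, skin and tendon (probe set 17255260, chromosome 11), measured 8.15, 8.18, 8.14, 8.34 and 8.13 in carcinomas, 7.90, 8.05, 8.10, 7.95 and 7.78 in papillomas, and 8.83, 8.92, 8.61, 8.73 and 8.76 in normal tissue. Every tumour array lay below every normal array. Col1a1 was lower, with a difference of -0.58 in carcinomas (SE 0.08, limma adjusted p = 1.9e-05, 1.49-fold) and of -0.81 in papillomas (SE 0.08, adjusted p = 6.3e-07, 1.76-fold). The tumours differed by 0.23 (95% interval 0.07 to 0.40, adjusted p = 0.0674), which missed the threshold. It passed with dim genes left out or with chromosome-wide shifts removed.

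Col1a2, the partner chain of type I (probe set 17455801, chromosome 6), measured 9.10, 8.88, 8.77, 9.57 and 8.29 in carcinomas, 7.63, 7.85, 8.02, 7.64 and 7.68 in papillomas, and 9.20, 9.20, 9.22, 9.22 and 9.22 in normal tissue. The normal arrays, whose samples may hold more than 1 mouse, were nearly identical (SD 0.01). The papillomas were all lower than any other array, and 4 carcinomas lay below normal tissue and 1 above it. Col1a2 fell in papillomas by 1.44 on the log2 scale (SE 0.17, adjusted p = 4.92e-06, 2.72-fold) and was higher in carcinomas than in papillomas by 1.16 (SE 0.17, adjusted p = 0.000413). Against normal tissue the carcinoma difference was -0.29 (SE 0.17, adjusted p = 0.203), and without carcinoma array 4 it was -0.45 (adjusted p = 0.0123). The dimmer probe set of Col1a2 gave -0.22 in carcinomas and -1.25 in papillomas against normal tissue.

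Col3a1, the chain of type III collagen of pliable tissues and vessel walls (probe set 17212461, chromosome 1), measured 8.96, 8.68, 8.09, 8.26 and 8.26 in carcinomas, 8.48, 8.95, 8.30, 9.81 and 8.84 in papillomas, and 7.59, 7.77, 7.67, 7.63 and 7.66 in normal tissue. All tumour arrays were above all normal arrays. The SD was 0.36 and 0.59 in the tumours and 0.07 in normal tissue, where samples may hold more than 1 mouse. It rose by 0.79 in carcinomas (SE 0.23, adjusted p = 0.0113) and by 1.21 in papillomas (SE 0.23, adjusted p = 0.000522). Against only normal array 1 the differences were as large (0.86, adjusted p = 0.250, and 1.29, adjusted p = 0.1004) but not called. The difference between the tumours was -0.42 (95% interval -0.91 to 0.06, adjusted p = 0.275).

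Col5a1, a chain of type V collagen that seeds type I fibrils (probe set 17368569, chromosome 2), measured 8.96, 9.06, 8.87, 9.39 and 9.03 in carcinomas, 8.64, 8.29, 9.11, 9.22 and 8.34 in papillomas, and 8.15, 8.30, 8.04, 8.02 and 8.15 in normal tissue. Carcinomas were above all normal arrays, while papilloma array 2 lay within the normal range. It rose by 0.93 in carcinomas (SE 0.16, adjusted p = 0.000252) and by 0.59 in papillomas (SE 0.16, adjusted p = 0.0104). Neither call held with normal array 1 alone (0.92, adjusted p = 0.0844, and 0.57, adjusted p = 0.318). The dimmer probe set of Col5a1, with a mean of 6.94 in carcinomas, 7.12 in papillomas and 6.86 in normal tissue, differed by only 0.08 in carcinomas (adjusted p = 0.585) and by 0.26 in papillomas (adjusted p = 0.0589). The mean of both probe sets gave 0.51 in carcinomas and 0.42 in papillomas.

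The other 7 fibrillar genes passed the threshold in no comparison. These were Col2a1, Col11a1 and Col11a2, known from cartilage fibrils, the type V chains Col5a2 and Col5a3, and the minor fibrillar genes Col24a1 and Col27a1. The nearest to it was Col2a1, with -0.20 in carcinomas (adjusted p = 0.0963) and -0.23 in papillomas (adjusted p = 0.0592).

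**Figure D2:**
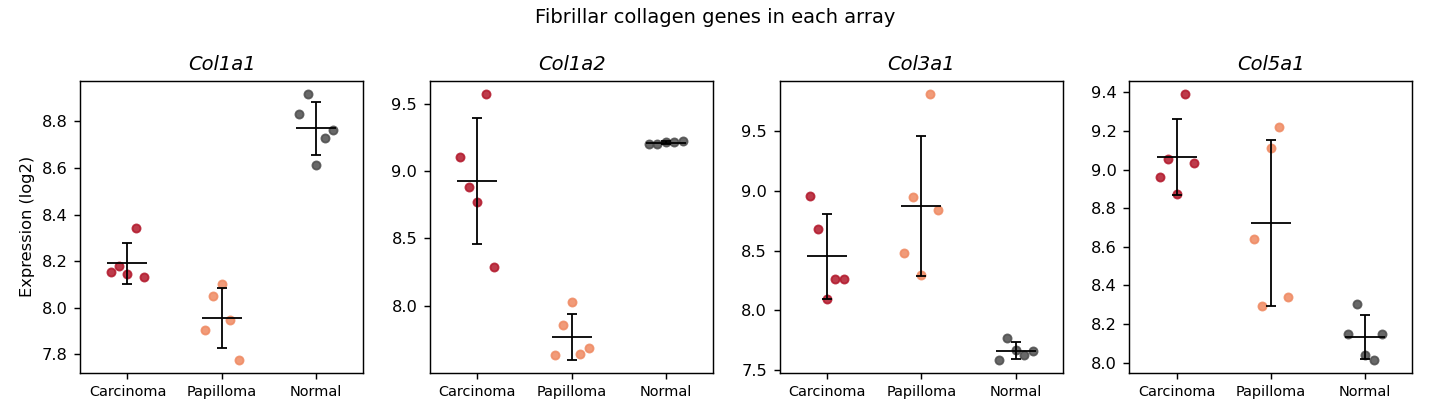
The log2 expression of 4 fibrillar collagen genes is plotted for each array (points) with the group mean and SD (bars, n = 5). Col1a1 and Col1a2 are lowest in papillomas, and Col3a1 and Col5a1 are higher in both tumour types than in normal tissue.

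Sequence just before the annotated start was taken from RefSeq (GRCm38.p6) for Col1a2 and Col3a1, because these fibrillar genes moved in opposite directions in papillomas, and for Col8a2, because it had the largest fall of the family. Each run holds the 250 bases before the start on the + strand. Capitals mark the motif TATAAA, the motif CCAAT and the motif GGGCGG, each searched on both strands, so that a match on the other strand is shown as its reverse complement.
Col1a2, chr6:4505368-4505617: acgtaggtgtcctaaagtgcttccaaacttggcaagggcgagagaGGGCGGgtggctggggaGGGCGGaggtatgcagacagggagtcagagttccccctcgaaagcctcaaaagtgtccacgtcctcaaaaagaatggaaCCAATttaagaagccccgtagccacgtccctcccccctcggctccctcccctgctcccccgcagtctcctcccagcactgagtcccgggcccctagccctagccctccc
Col3a1, chr1:45311288-45311537: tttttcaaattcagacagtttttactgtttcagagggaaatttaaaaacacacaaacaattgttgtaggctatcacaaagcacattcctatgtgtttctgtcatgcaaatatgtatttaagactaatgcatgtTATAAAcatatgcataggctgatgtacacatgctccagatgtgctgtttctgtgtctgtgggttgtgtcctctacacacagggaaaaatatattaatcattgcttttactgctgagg
Col8a2, chr4:126286544-126286793: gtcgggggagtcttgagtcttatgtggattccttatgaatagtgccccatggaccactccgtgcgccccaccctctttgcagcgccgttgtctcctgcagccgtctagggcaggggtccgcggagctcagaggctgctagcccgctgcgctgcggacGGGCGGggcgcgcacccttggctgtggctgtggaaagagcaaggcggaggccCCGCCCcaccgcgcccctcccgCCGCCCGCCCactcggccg

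The windows differed in base composition, with 62% G and C before Col1a2, 35.2% before Col3a1 and 70% before Col8a2, beside a median of 52.4% over 32851 windows of the same length. Col1a2 had a CCAAT match at 109 bases before the start and GGGCGG matches at 205 and 188. Col3a1 had a TATAAA match at 117 bases before the start. Col8a2 had GGGCGG or its reverse complement at 93, 41, 19 and 15 bases, with the last 2 overlapping. Of all windows, 12.4% held TATAAA, 33.8% CCAAT and 32.7% GGGCGG on either strand, so these matches are common letters and describe the windows only. Promoter windows were found for 35 of the 44 genes.

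Network collagens held the largest fall of the family and a split within type IV. Col8a2, a chain of the short type VIII collagen that builds a hexagonal lattice under corneal and vascular endothelium (probe set 17418581, chromosome 4), measured 7.46, 7.24, 8.42, 7.63 and 6.84 in carcinomas, 6.65, 6.75, 6.62, 6.62 and 6.68 in papillomas, and 9.94, 9.78, 9.96, 9.82 and 9.93 in normal tissue. All papillomas lay below all carcinomas, and all carcinomas below all normal arrays. Col8a2 fell by 2.37 on the log2 scale in carcinomas (SE 0.20, adjusted p = 1.13e-07, 5.16-fold) and by 3.22 in papillomas (SE 0.20, adjusted p = 4.49e-09, 9.31-fold). The papilloma values lay below the median of their arrays, where RMA compresses differences, so this fold is uncertain. Carcinomas were higher than papillomas by 0.85 (SE 0.20, adjusted p = 0.0104), and in a fit of the tumours alone this call was lost. With normal array 1 alone the falls were -2.42 and -3.28 and both calls held.

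Col8a1, the other type VIII chain, behaved differently. It measured 12.25, 10.40, 11.93, 12.47 and 12.10 in carcinomas, 11.87, 11.97, 12.00, 12.26 and 12.05 in papillomas, and 12.14, 12.46, 12.48, 12.46 and 12.53 in normal tissue, and these ranges overlapped. It passed the threshold in neither carcinomas (-0.59, 95% interval -1.18 to 0.01, adjusted p = 0.116) nor papillomas (-0.38, adjusted p = 0.346). Without carcinoma array 2, which measured 10.40, the papilloma difference of -0.38 was called (adjusted p = 0.0117) and the carcinoma difference was -0.23 (adjusted p = 0.143). Without carcinoma array 4 the carcinoma difference of -0.74 was called (adjusted p = 0.0452).

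Col4a1 and Col4a2 encode the chains of the common type IV network under epithelia and around vessels, and lie head to head on chromosome 8 with annotated starts 21 bases apart. Col4a1 (probe set 17507377) measured 9.44, 9.15, 8.90, 8.92 and 8.83 in carcinomas, 8.59, 8.60, 8.32, 8.53 and 8.61 in papillomas, and 7.42, 7.82, 7.94, 7.71 and 7.81 in normal tissue. Col4a2 (probe set 17498962) measured 8.74, 8.47, 8.44, 8.36 and 8.36 in carcinomas, 8.15, 8.10, 7.97, 8.06 and 8.13 in papillomas, and 7.50, 7.32, 7.35, 7.33 and 7.48 in normal tissue. For both genes every carcinoma was above every papilloma and every papilloma above every normal array. Col4a1 rose by 1.31 in carcinomas (SE 0.12, adjusted p = 3.19e-07, 2.48-fold) and by 0.79 in papillomas (SE 0.12, adjusted p = 7.49e-05). Col4a2 rose by 1.08 in carcinomas (SE 0.08, adjusted p = 2.63e-08, 2.11-fold) and by 0.69 in papillomas (SE 0.08, adjusted p = 4.26e-06). Carcinomas were above papillomas by 0.52 for Col4a1 (SE 0.12, adjusted p = 0.0104) and by 0.39 for Col4a2 (SE 0.08, adjusted p = 0.00413).

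Genes of chromosome 8 had a median shift of -0.10 in carcinomas against normal tissue. With each autosome's median shift removed, Col4a1 was higher by 1.42 and Col4a2 by 1.19 in carcinomas. Both calls against normal tissue also held with normal array 1 alone, at 1.63 and 0.97 in carcinomas and 1.11 and 0.58 in papillomas.

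The type IV chains of specialised basement membranes fell instead. Col4a3, a chain of the network of kidney glomeruli whose loss causes Alport syndrome (probe set 17214771), measured 7.27, 7.07, 7.37, 7.58 and 7.63 in carcinomas, 7.36, 7.25, 7.40, 7.32 and 7.59 in papillomas, and 8.14, 8.15, 8.22, 8.30 and 8.34 in normal tissue. All tumour arrays were below all normal arrays, and the tumour types overlapped. Col4a3 was lower, with a difference of -0.85 in carcinomas (SE 0.10, adjusted p = 5.37e-06) and of -0.85 in papillomas (SE 0.10, adjusted p = 6.51e-06), and the tumours differed by 0.00 (95% interval -0.21 to 0.22). Its neighbour on chromosome 1, Col4a4, of the same network, was lower, with a difference of -0.39 in carcinomas (SE 0.11, adjusted p = 0.00957) and of -0.38 in papillomas (SE 0.11, adjusted p = 0.0130). Both calls of Col4a4 were lost with normal array 1 alone (-0.22, adjusted p = 0.540, and -0.21, adjusted p = 0.611). Col4a5, the X-linked partner chain, fell in papillomas (-0.36, SE 0.13, adjusted p = 0.0342) and not by test in carcinomas (-0.29, adjusted p = 0.0809). That papilloma call ended in 10 of 27 alternative settings. Col4a6, next to Col4a5 on the X chromosome, and Col10a1, the hypertrophic cartilage collagen, passed in no comparison.

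**Figure D3:**
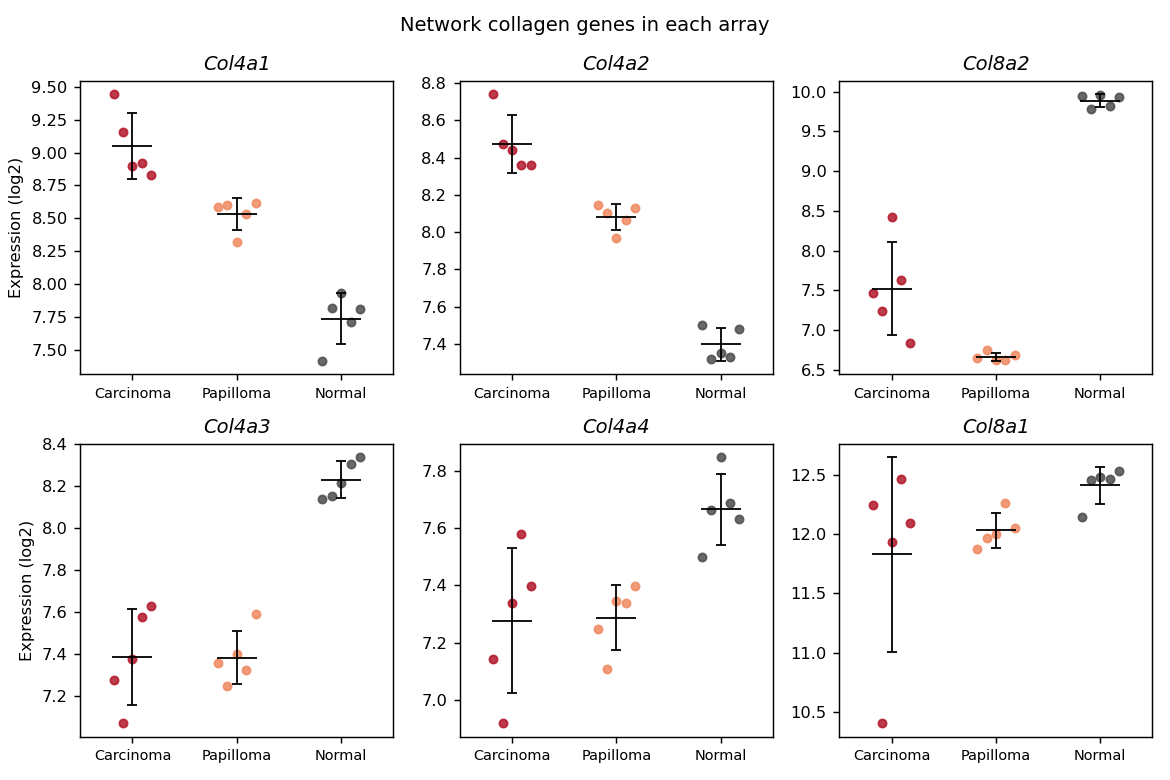
The log2 expression of 6 network collagen genes is plotted for each array (points) with the group mean and SD (bars, n = 5). Col4a1 and Col4a2 descend from carcinoma to papilloma to normal tissue without overlap, Col4a3 and Col8a2 are highest in normal tissue, and carcinoma array 2 is low for Col8a1.

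Basement membrane partners of type IV collagen were examined as a list of 14 measured genes. In carcinomas 6 were higher and 3 lower than in normal tissue (42.9% and 21.4%), with a median of 0.35. The shares of all genes were 18.7% and 19.2%. In papillomas 6 were higher and 5 lower (42.9% and 35.7%, against 17.0% and 16.3%), with a median of -0.16. Carcinomas exceeded papillomas in 8 genes (57.1%, against 6.24%) and were lower in 0 (against 5.17%), with a median of 0.40. Pxdn, the peroxidase that cross-links type IV collagen, rose by 1.94 in carcinomas (SE 0.17, adjusted p = 2.56e-07) and by 1.08 in papillomas (SE 0.17, adjusted p = 0.000139). Nid2, a nidogen that links laminin to type IV collagen, measured 10.43, 10.39, 10.02, 11.68 and 9.97 in carcinomas, 7.99, 7.70, 9.09, 8.73 and 8.94 in papillomas, and 10.61, 10.45, 10.45, 10.36 and 10.53 in normal tissue. The papillomas were below every array of the other groups, with a difference of -1.99 against normal tissue (adjusted p = 7.93e-05).

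Beside Col4a1 and Col4a2, endothelial markers were mostly higher in both tumour types, and mural cell markers were mostly higher in carcinomas and went both ways in papillomas. Of all genes, 18.7% were higher and 19.2% lower in carcinomas than in normal tissue, and 17.0% and 16.3% in papillomas. Of 12 endothelial genes, 8 were higher and 0 lower in carcinomas (66.7% higher). In papillomas 8 were higher and 1 lower (66.7% and 8.33%). The list means were 8.77 to 9.21 in carcinomas, 8.52 to 8.93 in papillomas and 7.97 to 8.42 in normal tissue. Of 12 pericyte and smooth muscle genes, 9 were higher and 1 lower in carcinomas (75% and 8.33%). In papillomas 4 were higher and 3 lower (33.3% and 25%). Their list means were 8.67 to 8.94 in carcinomas, 8.24 to 8.46 in papillomas and 7.88 to 8.20 in normal tissue. In papillomas only Acta2 of these genes was called at 2-fold or more, with a mean of 12.50 against 9.89 in normal tissue. Between the tumours, where Col4a1 and Col4a2 were called, 4 of the 12 pericyte and smooth muscle genes were higher and 0 lower in carcinomas (33.3% higher, median 0.30). Of all genes, 6.24% were higher and 5.17% lower between the tumours. Of the 12 endothelial genes 0 were called there by limma, 3 had an unadjusted p under 0.05, and the median was 0.23. The part of these cells in the type IV result was not tested.

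Among the other collagens, Col14a1 had the largest rise of the family. Col14a1, a collagen with interrupted helices that binds the surface of fibrils (probe set 17311551, chromosome 15), measured 10.77, 12.04, 9.87, 11.58 and 11.01 in carcinomas, 10.82, 9.88, 11.03, 11.96 and 10.30 in papillomas, and 8.60, 8.87, 8.94, 8.99 and 8.61 in normal tissue. Every tumour array was above every normal array, and the spread within each tumour type was wide (SD 0.83 and 0.79). The SD was 0.18 in normal tissue, where samples may hold more than 1 mouse. It rose by 2.25 in carcinomas (SE 0.38, adjusted p = 0.000156, 4.77-fold) and by 1.997 in papillomas (SE 0.38, adjusted p = 0.000548, 3.99-fold). With normal array 1 alone the rise was 2.46 in carcinomas (adjusted p = 0.0494) and 2.20 in papillomas (adjusted p = 0.0872, no longer called). The tumours differed by 0.26 (95% interval -0.55 to 1.06, adjusted p = 0.740).

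Col12a1, a fibril-associated collagen of the same kind and known from tendon and wound matrix (probe set 17529099, chromosome 9), went the other way in papillomas. It measured 7.18, 7.65, 6.86, 8.51 and 7.38 in carcinomas, 6.60, 6.32, 6.72, 6.23 and 5.97 in papillomas, and 7.98, 7.96, 8.08, 7.90 and 8.16 in normal tissue. The papillomas were all lowest and below the median of their arrays, and 4 of the 5 carcinomas were below normal tissue. Col12a1 fell by 1.65 on the log2 scale in papillomas (SE 0.23, adjusted p = 3.65e-05, 3.13-fold) and was higher in carcinomas than in papillomas by 1.15 (SE 0.23, adjusted p = 0.00443). Against normal tissue the carcinoma difference was -0.50 (adjusted p = 0.109), and without carcinoma array 4 it was -0.75 (adjusted p = 0.00149).

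Col9a3, a chain of type IX collagen that coats cartilage fibrils (probe set 17380813, chromosome 2), measured 11.12, 11.38, 10.62, 11.04 and 11.14 in carcinomas, 10.42, 10.09, 10.44, 9.74 and 10.37 in papillomas, and 10.97, 10.96, 11.01, 10.98 and 10.96 in normal tissue. Papillomas were below all other arrays, and carcinomas spread around normal tissue. It was lower in papillomas than in normal tissue (-0.76, SE 0.14, adjusted p = 0.000438) and higher in carcinomas than in papillomas (0.85, SE 0.14, adjusted p = 0.00119). With normal array 1 alone the papilloma difference was as large (-0.76) but no longer called (adjusted p = 0.118). The other type IX chains, Col9a1 and Col9a2, passed in no comparison. Of 13 cartilage and bone markers, 0 were higher and 5 lower in carcinomas than in normal tissue (38.5% lower, against 19.2% of all genes). In papillomas 0 were higher and 6 lower (46.2% lower, against 16.3%). The joint lubricant gene Prg4 fell most, by 2.47 on the log2 scale in carcinomas (SE 0.15, adjusted p = 3.85e-09). Its carcinoma values (5.92 to 6.48) lay below the array median, so this size is uncertain. The marker list means were 6.66 to 6.83 in carcinomas, 6.70 to 6.83 in papillomas and 7.05 to 7.28 in normal tissue. Most of these markers, Cnmd and Sp7 among them, had means below the array medians in every group, where real change would be hard to see. Sox9 was far brighter, with means of 12.07, 11.98 and 12.22. The part of these markers in the Col9a3 result was not tested.

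Type VI collagens, which form beaded filaments around cells, split between papillomas and carcinomas. Col6a1 (probe set 17242177, chromosome 10) measured 8.95, 8.72, 8.61, 8.95 and 8.64 in carcinomas, 8.41, 8.36, 8.41, 8.31 and 8.24 in papillomas, and 9.11, 8.89, 8.93, 8.56 and 8.91 in normal tissue. The papillomas were below all other arrays. Col6a1 was lower in papillomas, with a difference of -0.53 (SE 0.10, adjusted p = 0.000511) and higher in carcinomas than in papillomas by 0.43 (SE 0.10, adjusted p = 0.0108). Its dimmer probe set gave -0.54 and 0.56, and both were called. The partner chain Col6a2, also on chromosome 10, was lower in papillomas, with a difference of -0.41 (SE 0.11, adjusted p = 0.00881), a call lost with normal array 1 alone (-0.36, adjusted p = 0.369).

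Col6a3, the long chain of type VI (probe set 17225413, chromosome 1), measured 7.66, 7.48, 7.55, 7.71 and 7.53 in carcinomas, 7.40, 7.30, 7.18, 7.37 and 7.30 in papillomas, and 7.33, 7.17, 7.22, 7.18 and 7.21 in normal tissue. Carcinomas were above all other arrays, by 0.37 against normal tissue (SE 0.07, adjusted p = 0.000324) and by 0.28 against papillomas (SE 0.07, adjusted p = 0.0126). The call against normal tissue was lost with normal array 1 alone (0.25, adjusted p = 0.224) and the call against papillomas in a fit of the tumours alone. Col6a5, a minor type VI chain, measured 6.16, 6.55, 6.30, 6.61 and 6.27 in carcinomas, 6.72, 6.47, 6.57, 6.796 and 6.32 in papillomas, and 7.12, 6.75, 6.85, 6.66 and 6.84 in normal tissue. All carcinomas were below all normal arrays, with a difference of -0.47 (SE 0.11, adjusted p = 0.00371). Col6a5 was below the array median in 13 of the 15 arrays, with the normal values close to it, so this size is uncertain.

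The multiplexins Col15a1 and Col18a1, proteoglycan collagens of basement membrane zones, moved in opposite directions. Col18a1, the source of endostatin (probe set 17242232, chromosome 10), measured 8.65, 8.38, 8.15, 8.74 and 8.90 in carcinomas, 8.67, 8.58, 8.22, 8.26 and 8.65 in papillomas, and 9.05, 8.996, 9.02, 8.93 and 9.08 in normal tissue. All tumour arrays were below all normal arrays, with a difference of -0.45 in carcinomas (SE 0.13, adjusted p = 0.0113) and of -0.54 in papillomas (SE 0.13, adjusted p = 0.00395). Col15a1 rose by 0.36 in carcinomas (SE 0.11, adjusted p = 0.0167) and by 0.31 in papillomas (SE 0.11, adjusted p = 0.0403), with overlap between the groups. It was below the array median in 5 of the 15 arrays, most of them normal, so these sizes are uncertain. Against normal array 1 alone the differences of Col18a1 were -0.48 in carcinomas and -0.57 in papillomas, and those of Col15a1 were 0.47 and 0.42. None of these was smaller than with all normal arrays, but with 1 normal array none of the 4 passed the threshold (adjusted p = 0.160 to 0.258). The papilloma call of Col15a1 ended in 10 of 27 settings.

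Col17a1, the membrane-spanning collagen of hemidesmosomes (probe set 17365511, chromosome 19), measured 7.69, 7.64, 7.68, 8.06 and 7.90 in carcinomas, 7.30, 7.41, 7.44, 7.57 and 7.45 in papillomas, and 7.92, 7.75, 8.13, 7.87 and 8.10 in normal tissue. Papillomas were below all other arrays, with a difference of -0.52 against normal tissue (SE 0.10, adjusted p = 0.000447). Carcinomas were above papillomas by 0.36 (SE 0.10, adjusted p = 0.0242), a call that ended in 6 of 26 settings. With normal array 1 alone the papilloma difference was -0.49 and no longer called (adjusted p = 0.0838). The membrane-spanning Col25a1 was lower in carcinomas, with a difference of -0.23 (SE 0.08, adjusted p = 0.0417), a call that ended in 14 of 26 settings. It was below the array median in 11 of the 15 arrays. The remaining 13 genes of other types passed in no comparison, namely Col6a4, Col6a6, Col7a1, Col28a1, Col9a1, Col9a2, Col16a1, Col19a1, Col20a1, Col22a1, Col13a1, Col23a1 and Col26a1. With the fibrillar and network genes, 23 of the 44 were called nowhere, and 3 (Col4a1, Col4a2 and Col8a2) were called in all comparisons.

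**Figure D4:**
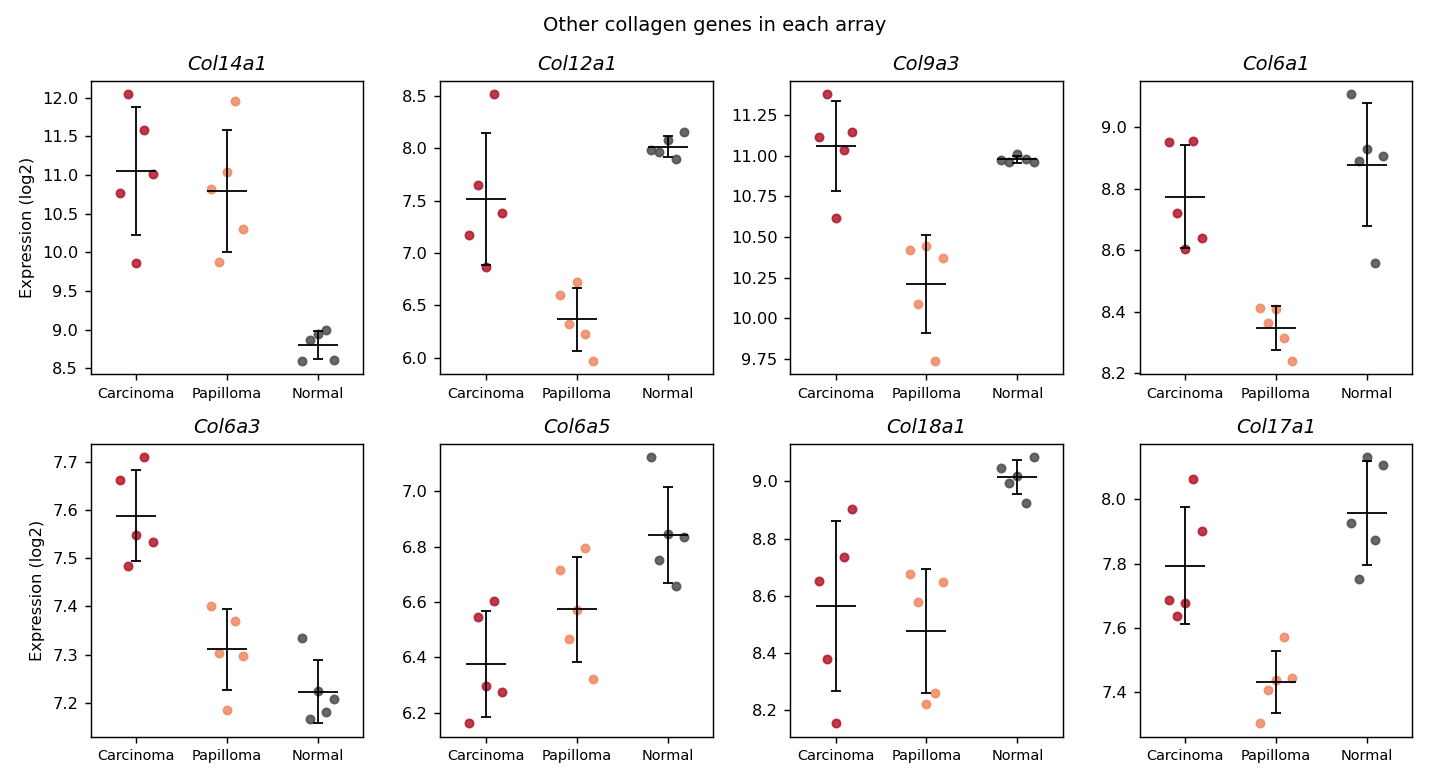
The log2 expression of 8 other collagen genes is plotted for each array (points) with the group mean and SD (bars, n = 5). Col14a1 is high and scattered in both tumour types, and Col12a1, Col9a3, Col6a1 and Col17a1 are lowest in papillomas.

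The collagen genes also differed between arrays of the same group. Among the carcinomas, array 4 was the highest for 26 of the 44 genes (59.1%, against 28.8% of all genes), and array 3 the lowest for 24 (54.5%, against 21.8%). Among the papillomas, array 4 was the highest for 23 genes (52.3%, against 19.7%) and array 5 the lowest for 18 (40.9%, against 19.97%). Carcinoma array 3 had the lowest median of the carcinomas (6.79), and papilloma array 4 the highest of the papillomas (6.87). The counts also include genes called nowhere, such as Col19a1, which was below the array median in every array. What these differences come from was not tested. Carcinoma array 4 also had the highest means of the carcinomas for the fibroblast list (8.29), the pericyte and smooth muscle list (8.94) and the macrophage list (8.95), and the lowest for the endothelial list (8.77). Without it, 12 rather than 7 collagen genes were lower in carcinomas than in normal tissue, with Col12a1, Col13a1, Col1a2, Col26a1, Col2a1 and Col8a1 gained and Col25a1 lost. The 9 calls between the tumours were kept without carcinoma array 4 and without papilloma array 4.

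Genes that fold, process and bind collagen chains were counted in lists, and their shares are read against those of all genes, which were 18.7% higher and 19.2% lower in carcinomas, 17.0% and 16.3% in papillomas, and 6.24% and 5.17% between the tumours. Of 19 measured folding and modification genes, 7 were higher and 3 lower in carcinomas (36.8% and 15.8%), and 5 higher and 2 lower in papillomas (26.3% and 10.5%), than in normal tissue. Between the tumours 3 were higher and 1 lower in carcinomas (15.8% and 5.26%). P4ha2, a subunit of the prolyl hydroxylase that stabilises the helix, rose by 1.16 in carcinomas (SE 0.20, adjusted p = 0.00018). The collagen chaperone Serpinh1 rose by 0.55 in carcinomas (adjusted p = 0.000231) and by 0.56 in papillomas (SE 0.10, adjusted p = 0.000258). Creb3l1, a transcription factor that activates type I collagen genes in bone, fell by 1.98 on the log2 scale in carcinomas (adjusted p = 0.000975). Its means were 8.58 in carcinomas, 9.79 in papillomas and 10.56 in normal tissue. It was called neither in papillomas, where Col1a1 and Col1a2 were lowest, nor between the tumours.

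Of 13 measured processing and cross-linking genes, 3 were higher and 3 lower in carcinomas than in normal tissue (23.1% each), near the shares of all genes. In papillomas 0 were higher and 7 lower (53.8%), and 5 were higher and 0 lower in carcinomas than in papillomas (38.5% higher). Lox, the lysyl oxidase that cross-links fibrils, measured 9.38, 8.62, 8.4996, 9.82 and 10.45 in carcinomas, 7.54, 7.29, 7.44, 6.70 and 6.86 in papillomas, and 7.59, 6.97, 7.18, 7.25 and 7.59 in normal tissue. All carcinomas were above all other arrays, by 2.04 against normal tissue (SE 0.31, adjusted p = 5.66e-05) and by 2.19 against papillomas (adjusted p = 0.000336). In papillomas the procollagen processing enhancer Pcolce2 (-1.78) and the lysyl oxidase relatives Loxl3 (-1.34) and Loxl1 (-1.13) fell most.

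Of 15 measured collagen-binding fibril regulators, 2 were higher and 5 lower in carcinomas (13.3% and 33.3%), and 4 higher and 8 lower in papillomas (26.7% and 53.3%), than in normal tissue, and 5 were higher and 0 lower in carcinomas than in papillomas (33.3% higher). The small proteoglycans Omd and Aspn rose in carcinomas (1.73 and 1.70), and their relatives Lum, Dcn and Prelp fell (-3.57, -2.54 and -1.88). Lum was below the array median in carcinomas (5.63 to 6.40) and Aspn in normal tissue (5.74 to 6.75), so both sizes are uncertain. Fn1, the fibronectin on which collagen fibrils assemble, was higher in carcinomas than in papillomas by 2.05 (adjusted p = 0.00126). Among 10 collagen receptors, 2 were higher and 2 lower in each tumour type than in normal tissue, near the shares of all genes, and 0 were called between the tumours by limma, with 0 at an unadjusted p under 0.05. Itga2, a collagen-binding integrin subunit, rose by 0.78 in carcinomas and by 0.64 in papillomas, and Mrc2, the receptor that takes up cleaved collagen, fell by 1.43 and 1.67 on the log2 scale. Among 16 collagen-degrading proteases and inhibitors, 4 were higher and 4 lower in carcinomas (25% each) and 1 higher and 5 lower in papillomas (6.25% and 31.2%) than in normal tissue, and 2 were higher and 0 lower in carcinomas than in papillomas (12.5% higher). The protease gene Mmp3 was higher in carcinomas and papillomas (1.99 and 1.34) and Fap lower (-2.06 and -2.73). Mmp3 was below the array median in normal tissue (5.14 to 5.69) and in papilloma arrays 2, 3 and 5 (6.17 to 6.43), so its sizes are uncertain. Papilloma array 1 was the highest of its group at 8.20.

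Fibroblast and meningeal markers were mostly lower in both tumour types. Col1a1 was lower there too, while Col3a1, Col5a1 and Col14a1 were higher. Of all genes, 19.2% were lower and 18.7% higher in carcinomas than in normal tissue, and 16.3% and 17.0% in papillomas. Of 14 fibroblast genes, 10 were lower and 1 higher in carcinomas (71.4% and 7.14%), and 8 and 1 in papillomas (57.1% and 7.14%). Their list means were 7.82 to 8.29 in carcinomas, 7.85 to 8.10 in papillomas and 8.64 to 8.92 in normal tissue. Their receptor gene Pdgfra measured 11.33 ± 0.63 in carcinomas, 11.25 ± 0.45 in papillomas and 11.28 ± 0.26 in normal tissue (SD, n = 5 each). Fbln1 of the same list went the other way from most, with means of 11.72 in carcinomas, 11.65 in papillomas and 10.41 in normal tissue. Of 14 meningeal genes, 10 were lower and 2 higher in carcinomas (71.4% and 14.3%), and 11 and 0 in papillomas (78.6% lower). Their list means were 8.40 to 8.63 in carcinomas, 8.21 to 8.47 in papillomas and 9.14 to 9.35 in normal tissue. Of 10 macrophage genes, 1 was higher in carcinomas (10%, below the share of all genes), namely Cd68 (1.47, adjusted p = 0.000397). In papillomas 0 were called by limma, with 1 at an unadjusted p under 0.05. The part of these cells in the collagen results was not tested.

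**Figure D5:**
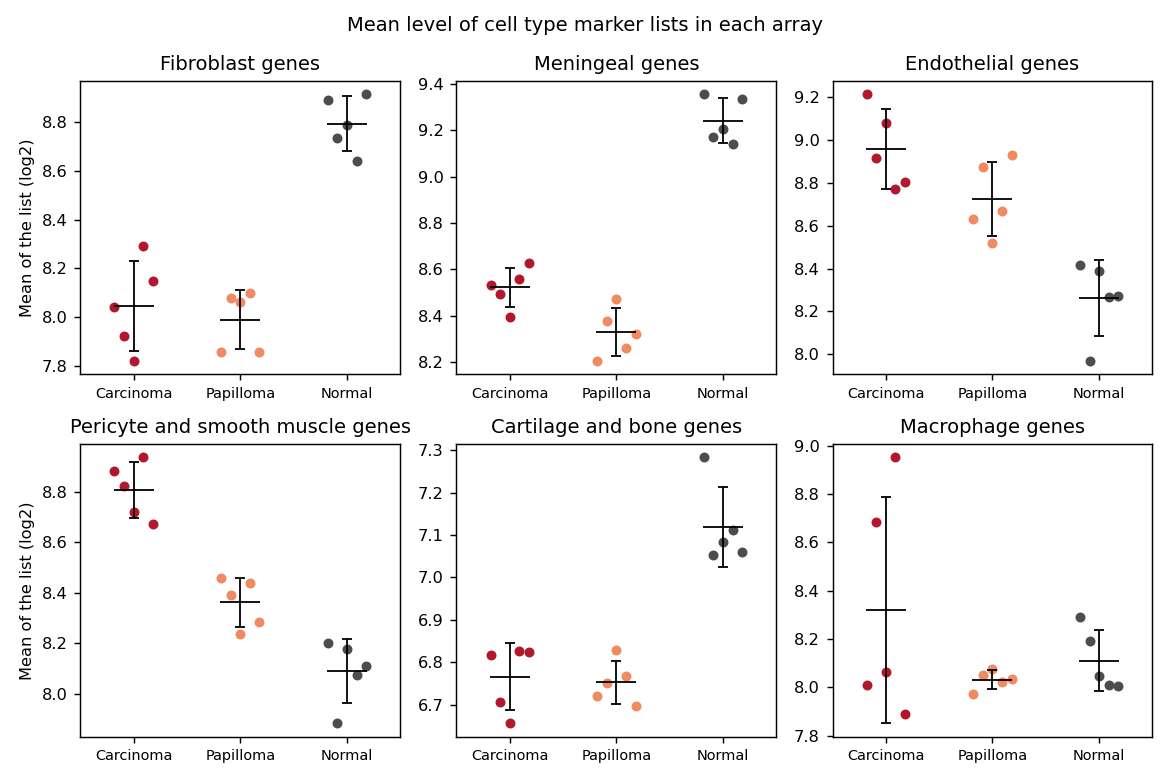
The mean log2 level of 6 marker lists is plotted for each array (points) with the group mean and SD (bars, n = 5). Fibroblast and meningeal list means are lower, and endothelial and mural list means higher, in the tumours than in normal tissue. In papillomas 4 of the 12 mural genes were called higher and 3 lower, and only Acta2 at 2-fold or more.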

How the data were processed

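The deposited values are log2 intensities per probe set that the authors made with RMA in Affymetrix Expression Console, per the submitters' processing notes, with no version given; no genome build is named in the sources used here. RMA forces the arrays to a shared distribution and compresses changes of dim probe sets. Arrays have no read depth, and 5 per group limit the precision. Of 41345 probe sets, 23521 were paired with exactly 1 symbol, and the brightest set per gene left 22180 genes. A limma 3.58.1 fit (R 4.3.3) of group on all 15 arrays, with no block, gave two-sided p-values adjusted by Benjamini-Hochberg over all genes. The script was tested on simulated data.

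The collagen genes, supporting lists and alternatives were chosen with earlier results of these data known. Per class and comparison, values in every array are given for up to 4 called genes with the largest difference; Col8a1 is shown besides. Of each supporting list up to 3 called genes per direction were eligible. Per the design text, samples came from different mice. Alternatives were a replicate block, other variance models, weights, scalings, filters and probe set rules, normal array 1 alone, and leaving out each array.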

Additional observations from a re-analysis of the deposited data

Results flagged for a closer look

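In 7 of 132 groups of 5 arrays (44 genes in 3 groups), the highest or lowest array stood farther from its nearest neighbour than Dixon's 95% limit allows; chance marks about 1 in 20. Col1a1 in carcinoma array 4 was the highest of its group at 8.34 (next 8.18). Col4a1 in papilloma array 3 was the lowest at 8.32 (next 8.53). Col8a1 was the lowest at 10.40 in carcinoma array 2 (next 11.93) and at 12.14 in normal array 1 (next 12.46). Col16a1 in papilloma array 4 was the highest at 7.34 (next 7.12). Col20a1 in normal array 5 was the lowest at 7.00 (next 7.20), and Col23a1 in normal array 1 was the lowest at 7.93 (next 8.09).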

How the results depend on the processing

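Of 41 called pairs of gene and comparison, 15 kept their call in every alternative that applied (26 or 27), and no called value changed sign. With normal array 1 alone, 3 higher and 4 lower genes remained in carcinomas and 2 and 6 in papillomas, all in their direction; this setting leaves 1 normal sample, assumed to vary like the other groups, and called 3550 and 2730 of all genes in place of 8403 and 7374. With an unpooled variance, 0 genes were called higher in carcinomas than in papillomas (11 collagen genes at an unadjusted p under 0.05), and 135 of all genes in place of 2530. Array quality weights and the omission of carcinoma array 4 each gave 12 genes lower in carcinomas. Leaving out 1 array gave 7 to 8 higher and 6 to 12 lower genes in carcinomas, 5 to 6 and 11 to 13 in papillomas, and 8 to 9 and 0 to 0 between the tumours. Deviations of arrays of the same replicate number from their group means correlated at -0.10 to 0.14. The design text names no pairing, and this check cannot exclude pairing. With the replicate block the counts were 7 and 6, 6 and 12, and 9 and 0. The dim filter kept 35 of the 44 genes.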
